A study of Drosophila melanogaster with 22 samples.

Results

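The comparison sets anterior ovarioles of the first day of adult life against those of days 2 to 4, to describe which transcripts were high just after eclosion and lower later. It uses 7 of the 22 libraries of a series that followed virgin females of the white-eyed w1118 strain of Drosophila melanogaster from day 1 to day 8 after eclosion. Each sample pooled 30 to 50 dissected ovarioles, and polyA-selected, strand-specific libraries were sequenced with synthetic spike-in RNAs added. The day 1 side holds replicates 1 and 2. The count column of day 1 replicate 1 is headed AO, and those of the other libraries of days 1 to 4 are headed pAO. The side of days 2 to 4 holds day 2 replicates 2 and 3, day 3 replicates 1 and 3, and day 4 replicate 1. All 7 samples share the genotype, sex, mating status and the rearing temperature of 25 °C, and all were dissected up to stage 8 egg chambers. They differ in age, with the day 1 females aged 1 to 1.5 days, and the later side joins 3 ages. For days 5 to 8 the dissection ended at stage 7, so age and dissection cannot be told apart there, and these libraries enter only as levels beside the comparison.

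The later libraries were chosen by their spike-in counts, with at least 100 required. The chosen libraries held 25577 to 910875 such counts, the lowest being day 3 replicate 1. Left out were day 2 replicate 1 with 31 spike-in counts, day 3 replicate 2 with 19 and day 4 replicate 2 with 52. Gene counts of the 7 libraries ranged from 1146915 to 2573634, and a gene with 3 counts is then at 1.17 to 2.62 CPM. CPM here are counts of a gene relative to all gene counts of its library, with TMM scaling between libraries.

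An ovariole is a chain of egg chambers that starts at the germarium, where the stem cells lie. Basement membrane surrounds the egg chambers, and a sheath of striated muscle wraps each ovariole and contracts it. In a sarcomere, the contractile unit, thin filaments of actin carry tropomyosin and the 3 troponins that switch contraction with calcium, while thick filaments hold myosin. Giant proteins and Z discs hold both filaments in register. In a bulk sample, fewer cells of a type and less RNA per cell cannot be told apart.

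The germline was present in every library as labelled. The summed level of 17 germline stem cell and cyst genes was 5545 and 5608 CPM on day 1 and 5128 to 5726 CPM on days 2 to 4. The gene aret, which encodes the translational repressor Bruno, had the highest CPM of that list. Its mean was 1488 ± 79.8 CPM (SD, n = 2) on day 1 and 1347 ± 113 CPM (SD, n = 5) later.

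Day 1 replicate 1 and day 4 replicate 1 stood apart in transcripts of other tissues. These markers were chosen after their values were seen. A list of 27 midgut protease genes summed to 52.7 CPM in day 1 replicate 1 and 164 CPM in day 4 replicate 1, and to 1.17 to 6.73 CPM in the other 5 libraries. A list of 18 photoreceptor genes summed to 477 and 538 CPM in these libraries and to 290 to 402 CPM in the others. Most of each sum came from norpA and inaE, which were at 126 to 217 CPM and 153 to 217 CPM across the 7 libraries. The gene ninaE, the rhodopsin of the outer photoreceptors, was at 24.6 and 47.7 CPM in these libraries and at 0.389 to 4.21 CPM in the others. Act79B, an actin of tubular muscle such as that of the leg, was at 16.9 and 31.0 CPM and at 0 to 0.485 CPM in the others. With it, 6 genes of flight and leg muscle summed to 51.3 and 60.3 CPM and to 1.68 to 23.3 CPM in the others. Day 1 replicate 1 also had 256 CPM of 79 genes listed for the male reproductive tract, against 38.9 to 80.0 CPM in the other 6 of the 7. In those 6 most of the sum came from 2 members detected in all 7 libraries. These were dj-1beta at 20.6 to 41.7 CPM and Mst85C at 7.04 to 25.3 CPM across the 7. Mst57Db of this list was at 20.4 CPM in day 1 replicate 1 and at 0 to 4.77 CPM in the other 6. Act88F, the indirect flight muscle actin, was at 0.702 CPM in day 1 replicate 1 and at 0 in day 1 replicate 2 and in day 4 replicate 1. The part of these transcripts in the differences of other genes was not tested. The called genes and the sarcomere and heat shock lists are given with and without these 2 libraries.

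Across 6845 tested genes, edgeR's quasi-likelihood test with Benjamini-Hochberg adjustment at 0.05 called 2 genes higher on day 1, up and Act57B, which is 0.0292% of the tested genes. It called 1 gene lower on day 1, Hsp83, which is 0.0146%, for 3 genes in either direction (0.0438%). Both genes called higher encode thin filament proteins of muscle, and the gene called lower encodes the chaperone Hsp90. At an unadjusted p under 0.05, 288 genes were higher on day 1 (4.21%) and 402 were lower (5.87%). Both day 1 libraries lay above all 5 later libraries in 520 genes (7.6%) and below all of them in 545 (7.96%). A log2 change of at least 1 was estimated for 102 genes towards day 1 (1.49%) and for 98 towards later days (1.43%). The median log2 change over all tested genes was 0.002. With 2 libraries on the day 1 side the test is limited. On simulated data it recovered 63% of 100 genes changed 2-fold and 97% of 100 changed 4-fold, and called 8 unchanged genes. All changed genes of the simulation lay above a minimum count. With that many true changes the adjusted threshold is easier to pass than in the data, where 3 genes were called. These shares therefore do not apply to the comparison itself.

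**Figure D1:**
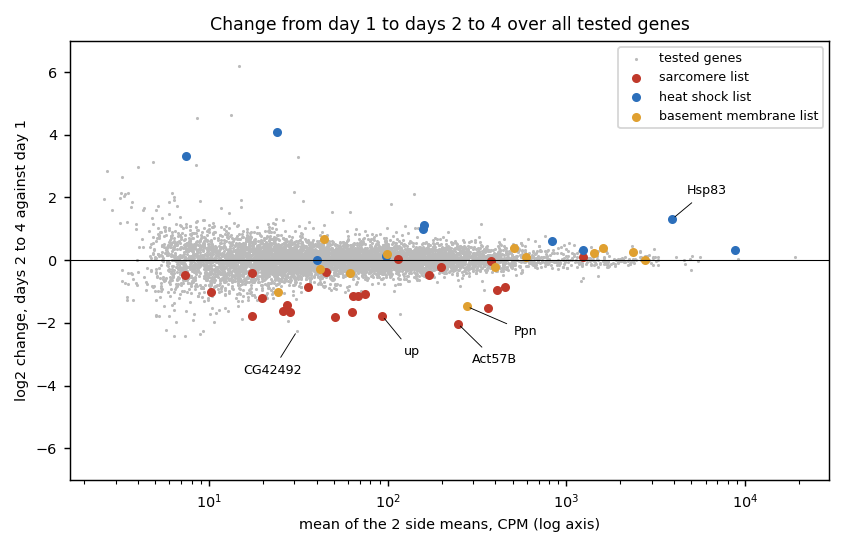
Log2 change of each of the 6845 tested genes from day 1 to days 2 to 4 (vertical axis, negative where the level was higher on day 1) against the mean of the group means in CPM (log axis), with the sarcomere, heat shock and basement membrane lists in colour. Of the 25 sarcomere genes 23 lie below 0, and all 10 heat shock genes lie above 0.

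The 2 genes called higher on day 1 were an actin and a troponin. Act57B, an actin of larval and visceral muscle (FBgn0000044, 2R:20944021-20946431 in the deposited FlyBase release 6 annotation), was at 410 and 382 CPM on day 1. It was at 161 and 90.0 CPM on day 2, at 63.4 and 54.4 CPM on day 3 and at 116 CPM on day 4. Both day 1 libraries lay above every later one, with a mean of 396 ± 19.3 CPM (SD, n = 2) against 97.0 ± 43.2 CPM (SD, n = 5). Act57B fell by 2.02 on the log2 scale (SE 0.29, edgeR adjusted p = 0.0227), a 4.08-fold difference of the means. Actin genes share much of their coding sequence and the handling of reads with several matches is not stated, so the split between actin genes is uncertain. In addition, 1 annotated gene overlaps Act57B on the same strand.

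The gene up encodes troponin T, which anchors the troponin complex to tropomyosin (FBgn0004169, X:13593474-13602578 in the same annotation). It was at 179 and 108 CPM on day 1. Its later levels were 46.5 and 31.1 CPM on day 2, 44.9 and 32.3 CPM on day 3 and 56.1 CPM on day 4. The groups did not overlap, and day 1 replicate 1 was the highest of the 7. The means were 143 ± 50.6 CPM (SD, n = 2) and 42.2 ± 10.5 CPM (SD, n = 5), and up fell by 1.77 on the log2 scale (SE 0.24, edgeR adjusted p = 0.0227). Per kilobase of exon, the day 1 level was 230 CPM for Act57B and 56.7 CPM for up.

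Over the 19 alternatives, all of which kept the direction, Act57B was called in 12 and up in 15. Leaving out day 1 replicate 1 gave adjusted p-values of 0.42 (Act57B) and 0.892 (up), and leaving out day 2 replicate 3 gave 0.139 and 0.107. Leaving out day 1 replicate 2 gave 0.272 for Act57B, and up kept its call with 0.0312. A fit without a day 1 replicate leaves 1 day 1 library, which is assumed to vary like the later ones. With both libraries that carried transcripts of other tissues left out, an alternative added after seeing the data, the log2 changes were -2.04 and -1.48 and the adjusted p 0.254 and 0.252.

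The other thin filament genes of the list did not pass the test, though the sides of several did not overlap. Tm2, tropomyosin 2, was at 79.4 and 77.4 CPM on day 1. It was at 32.0 and 12.6 CPM on day 2, at 22 and 10.9 CPM on day 3 and at 35.2 CPM on day 4 (log2 change -1.81, edgeR adjusted p = 0.124). No later library reached the level of day 1.

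Troponin I, the inhibitory subunit encoded by wupA, was at 42.1 and 43.5 CPM on day 1 and at 21.8, 11.8, 18.5, 5.83 and 10.1 CPM in the later libraries in the order above (log2 change -1.66, edgeR adjusted p = 0.192). TpnC73F, a calcium-binding troponin C, was at 35.1 and 42.9 CPM and later at 16, 5.05, 15.8, 11.7 and 15.1 CPM (log2 change -1.61, edgeR adjusted p = 0.186). These genes of all 3 troponin subunits had non-overlapping groups, and troponin T alone passed the test. Tm1, the other tropomyosin gene, was at 400 and 359 CPM on day 1 and at 357 to 416 CPM later, with overlapping groups and a log2 change of -0.01. Tm1 also makes tropomyosins of cells other than muscle.

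Act87E, a further muscle actin, was at 33.0 and 22.8 CPM on day 1 and spread from 1.68 to 27.6 CPM later, the highest being day 4 replicate 1 (log2 change -1.22, edgeR adjusted p = 0.579). Act79B was detected chiefly in the 2 libraries with transcripts of other tissues, as given above, so its log2 change of -0.49 (SE 1.59) compares single libraries.

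**Figure D2:**
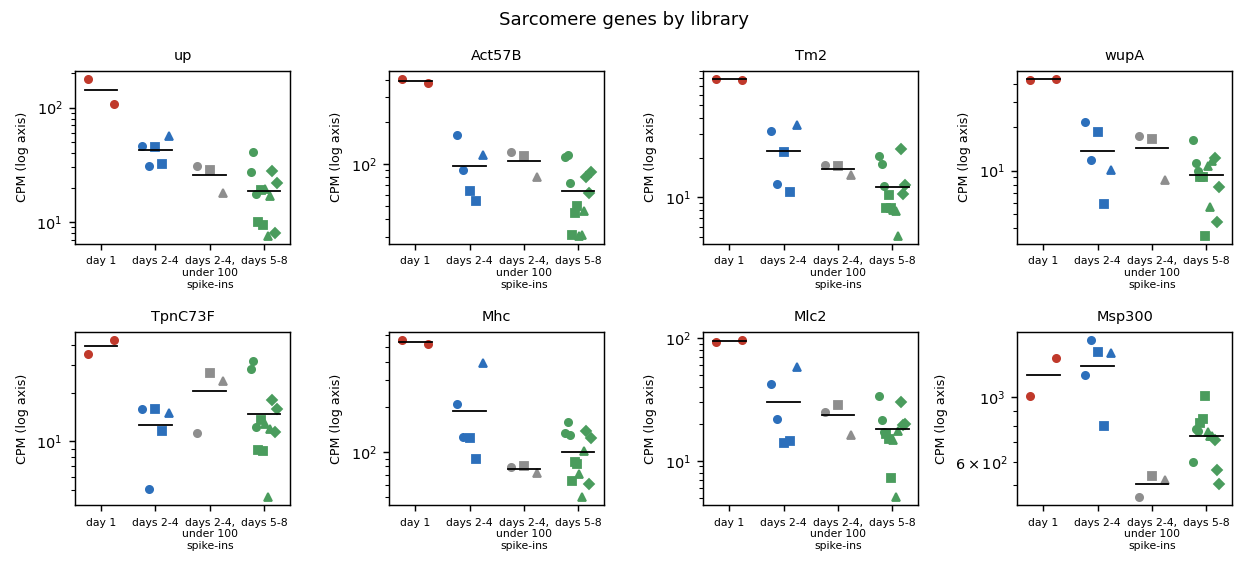
Levels in CPM (log axes) of 8 sarcomere genes in each library of day 1, of days 2 to 4, of the 3 left-out libraries with under 100 spike-in counts and of days 5 to 8, where circles, squares, triangles and diamonds mark successive days within a group and bars the group means. The day 1 points of up, Act57B, Tm2, wupA, TpnC73F, Mhc and Mlc2 lie above all points of days 2 to 4, and those of Msp300 lie among them.

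The thick filament genes had their highest later level in day 4 replicate 1. Mhc, the gene of muscle myosin heavy chain, was at 561 and 523 CPM on day 1. It was at 207 and 125 CPM on day 2, at 124 and 89.4 CPM on day 3 and at 393 CPM on day 4. The groups did not overlap, yet the day 4 library lay nearer to day 1 than to the other later libraries (log2 change -1.54, SE 0.38, edgeR adjusted p = 0.234). Mlc2, the regulatory light chain, was at 93.4 and 97.0 CPM on day 1, between 14.1 and 42.2 CPM in day 2 and day 3, and at 58.6 CPM in day 4 (log2 change -1.67, edgeR adjusted p = 0.221). Mlc1, the alkali light chain, was at 26 and 27.6 CPM on day 1, at 1.68 to 9.70 CPM on days 2 and 3 and at 20.9 CPM on day 4 (log2 change -1.77, edgeR adjusted p = 0.363). Paramyosin, the core protein of insect thick filaments encoded by Prm, had means of 101 ± 11 CPM (SD, n = 2) and 48.4 ± 30.5 CPM (SD, n = 5), and its day 4 level was 90.5 CPM. Myofilin, the thick filament protein encoded by Mf, was at 108 and 77.9 CPM on day 1 and at 19.4 to 70.4 CPM later.

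The giant titin-like genes were at day 1 levels in day 4 replicate 1. The gene sls, whose protein spans from the Z disc towards the thick filament, was at 530 and 622 CPM on day 1. It was at 254 and 249 CPM on day 2, at 296 and 136 CPM on day 3 and at 690 CPM on day 4, the highest of the 7 libraries. Projectin, encoded by bt, was at 485 and 598 CPM on day 1, at 129 to 343 CPM on days 2 and 3 and at 505 CPM on day 4. Unc-89, the obscurin of the M line, was at 76.6 and 98.1 CPM on day 1, at 16.3 to 45.8 CPM on days 2 and 3 and at 77.9 CPM on day 4. In all 3 genes the day 2 and day 3 libraries lay below day 1, the day 4 library lay within or above the day 1 range, and none passed the test.

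At the Z disc, Zasp66 had means of 39.4 ± 0.951 CPM (SD, n = 2) and 15.0 ± 7.24 CPM (SD, n = 5) with no overlap (log2 change -1.42, edgeR adjusted p = 0.253). Zasp52, a related PDZ and LIM domain gene, was at 180 and 213 CPM on day 1 and at 92.5 to 252 CPM later, so that its groups overlapped. The alpha-actinin gene Actn, which crosslinks actin in other cells too, was at 202 and 227 CPM on day 1 and at 157 to 202 CPM later (log2 change -0.23). Msp300, a giant nesprin that links nuclei to the cytoskeleton, was at 1011 and 1364 CPM on day 1 and at 796 to 1573 CPM later (log2 change 0.11). Chd64, a calponin-related gene also expressed outside muscle, had means of 113 ± 9.97 CPM (SD, n = 2) and 116 ± 9.31 CPM (SD, n = 5).

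Day 4 replicate 1 varied between sarcomere genes in its level relative to the day 1 mean, and the ranges of the roles overlapped. The roles were assigned after the values were seen. Over 8 thin filament genes its level was 23.5% to 368% of the day 1 mean, with 23.5% for wupA, 29.4% for Act57B, 39.1% for up, 99.1% for Act87E, 110% for Tm1 and 368% for Act79B. It was 61.6% (Mlc2) to 89.5% (Prm) over 5 thick filament genes, 89.2% to 120% (sls) over 3 giant or linking genes and 63.8% to 162% over 6 Z disc genes. The median log2 change was -1.635 over 8 thin filament genes, -1.54 over 5 thick filament genes, -0.96 over 3 giant or linking genes and -0.435 over 6 Z disc genes. The part of leg or other body muscle in this library was not tested.

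Of the whole list, 25 of 32 sarcomere genes passed the filter on low counts, 2 were called higher on day 1 and none lower, by edgeR as by DESeq2. At an unadjusted edgeR p under 0.05, 13 were higher on day 1 and none lower, against 4.21% and 5.87% of all tested genes. Both day 1 libraries lay above all later ones in 11 of the 25 (7.6% of all), and 23 had a negative estimate, against 49.7% of all tested genes. The median log2 change was -1.08, with a range from -2.02 to 0.11, and with the replicate number as a block the median was -0.64. The sum of the list was 4882 and 5246 CPM on day 1. It was 3261 and 3277 CPM on day 2, 3437 and 2134 CPM on day 3 and 4771 CPM on day 4. The day 1 sums were the highest of the 7, and the gap to day 4 replicate 1 was small. Day 1 replicate 2 had the highest sum. In it the flight and leg muscle list summed to 23.3 CPM, of which Act87E held 22.8 CPM, the midgut proteases to 5.3 CPM and the male reproductive tract list to 80 CPM. Its flight and leg muscle sum matched the 23.3 CPM of day 2 replicate 2, of which Act87E, also in the sarcomere list, held 21.3 CPM. Its male reproductive tract sum was the highest of the 5 libraries other than the 2 that stood apart. Of that sum dj-1beta held 37.1 CPM and Mst85C 19.1 CPM. The part of these transcripts in the sum was not tested.

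Without day 4 replicate 1 the median of the list was -1.39. EdgeR then called 6 of its 24 tested genes higher on day 1, where Mhc, Mlc2, Tm2 and sls joined up and Act57B. In that fit 9 of all 6880 tested genes were called higher on day 1. With day 1 replicate 1 left out as well, which leaves 1 day 1 library, 23 of 25 estimates stayed negative and the median was -1.42.

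**Figure D3:**
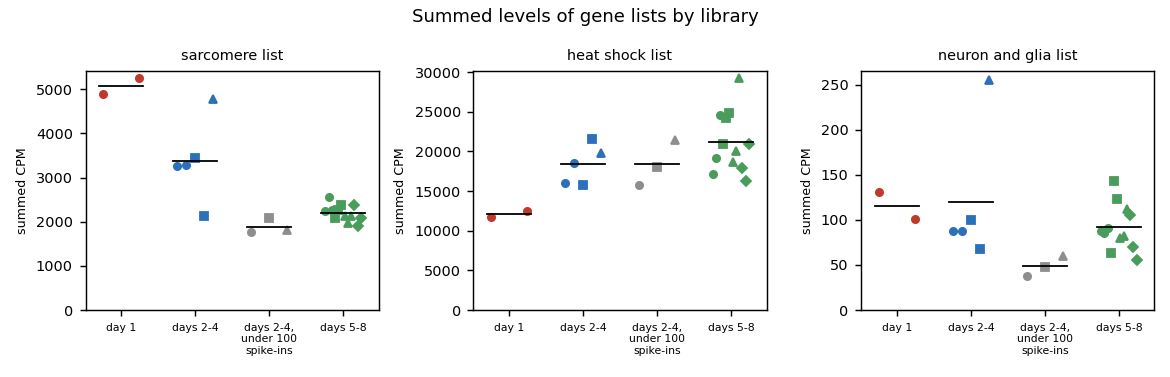
Summed CPM of the sarcomere, heat shock and neuron and glia lists in each library, with symbols by successive day within a group and bars for group means. The sarcomere sums of day 1 (4882 and 5246) are the highest, day 4 replicate 1 (4771) lies close to them and also has the highest neuron and glia sum (255).

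The left-out libraries and those of days 5 to 8 are set against the same 2 day 1 libraries, and their levels are given side by side. The sarcomere sum was 1776 to 2081 CPM in the 3 libraries with under 100 spike-in counts and 1904 to 2551 CPM, with a median of 2192 CPM, in the 12 libraries of days 5 to 8. Act57B was at 121, 114 and 79.9 CPM in day 2 replicate 1, day 3 replicate 2 and day 4 replicate 2, and at 30.4 to 116 CPM (median 55.9) on days 5 to 8. The gene up was at 31.2, 28.7 and 18 CPM and then at 7.58 to 40.5 CPM (median 18.3). Mhc was at 79.1, 80.1 and 71.9 CPM and then at 49.7 to 158 CPM (median 93.2). For these 3 genes each of the 15 libraries lay below both day 1 libraries. Msp300, whose groups overlapped between day 1 and days 2 to 4, was at 455 to 538 CPM in the 3 left-out libraries. On days 5 to 8 it was at 506 to 1011 CPM. List sums in these libraries thus also carry differences in genes that overlapped within the comparison, and their cause was not tested.

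Genes that direct muscle formation or adhesion had smaller estimates. Mef2, the muscle transcription factor, had means of 103 CPM on day 1 and 90.7 CPM later (log2 change -0.19, SE 0.23). The gene how, an RNA-binding regulator of muscle and tendon cells, was at 195 and 200 CPM on day 1 and at 135 to 178 CPM later (log2 change -0.38, edgeR adjusted p = 0.424). Among integrin adhesion genes, neither edgeR nor DESeq2 called any of 11 tested, 1 was higher on day 1 at an unadjusted p under 0.05 and 10 had negative estimates, with a median of -0.23, where 4.21% and 49.7% of all tested genes did so. The integrin subunit gene if had means of 35.4 and 17.1 CPM (log2 change -1.05, edgeR adjusted p = 0.325), while mys, the main beta subunit, had means of 187 and 186 CPM.

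Within the basement membrane list, Ppn had the lowest estimate, while the sides of the 4 genes with the highest CPM overlapped. Ppn encodes papilin, an extracellular matrix glycoprotein related to ADAMTS proteases. It was at 303 and 507 CPM on day 1. It was at 107 and 113 CPM on day 2, at 213 and 108 CPM on day 3 and at 198 CPM on day 4. No later library reached the day 1 levels (log2 change -1.47, SE 0.27), and the edgeR adjusted p of 0.0897 missed the threshold. Ppn was called in 6 of the 19 alternatives, and without the 2 libraries that stood apart its log2 change was -1.92 and it was not called. Pxn, the gene of peroxidasin, which crosslinks collagen IV, was at 28.8 and 36.6 CPM on day 1 and at 7.57 to 26.7 CPM later (log2 change -1.03, edgeR adjusted p = 0.415).

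The perlecan gene trol, which had the highest CPM of the list, was at 2929 and 2564 CPM on day 1. It was at 1680 to 3238 CPM later (log2 change -0.01, SE 0.19). Per kilobase of exon its day 1 level was 135 CPM, below the collagen IV genes Cg25C (350 CPM) and vkg (212 CPM). The collagen IV chains Cg25C and vkg had day 1 means of 2157 ± 261 and 1380 ± 125 CPM (SD, n = 2) and later means of 2571 ± 628 and 1805 ± 418 CPM (SD, n = 5). Laminin A, encoded by LanA, had means of 1304 ± 109 CPM (SD, n = 2) and 1536 ± 266 CPM (SD, n = 5). Of the 13 tested genes of the list edgeR called none, with 2 at an unadjusted p under 0.05 in each direction. Of all tested genes 4.21% were higher and 5.87% lower on day 1 at that p. DESeq2 called 1 of the 13, and 10 higher and 43 lower among all 6845. The median log2 change of the 13 was 0.11, with 6 negative and 7 positive estimates, where 49.7% of all tested genes were negative.

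Further genes were chosen for small unadjusted p-values among genes whose groups did not overlap, and none of them passed the test. CG42492, now named OtopLa, encodes a relative of the otopetrin proton channels. It was at 30.2 and 72.1 CPM on day 1 and at 7.27, 7.57, 12.3, 8.55 and 20.1 CPM later (log2 change -2.25, SE 0.40, edgeR adjusted p = 0.0812). Without day 1 replicate 1 and day 4 replicate 1 it was the only gene called higher on day 1, a call that sets day 1 replicate 2, at 72.1 CPM, alone against the later libraries and assumes that it varies like them. CG7777, now named Prip, encodes an aquaporin. It was at 230 and 239 CPM on day 1 and at 123 to 161 CPM later (log2 change -0.70, edgeR adjusted p = 0.150).

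Sirup, an assembly factor of mitochondrial succinate dehydrogenase, was at 44.3 and 42.9 CPM on day 1 and at 4.19 to 27.3 CPM later (log2 change -1.94, edgeR adjusted p = 0.192). Its left-out libraries ranged from 10.2 to 53.4 CPM and thus reached the day 1 levels. CG1572 had means of 43.0 ± 5.17 and 18.4 ± 4.99 CPM (SD, n = 2 and 5), CG9914 of 39.2 ± 2.2 and 19.5 ± 5.29 CPM, and CG1637 of 138 ± 17.8 and 80.5 ± 14.7 CPM. The small nucleolar RNA Or-CD2 was at 81.5 and 74.7 CPM on day 1 and at 33.8 to 53.7 CPM later (log2 change -0.94, edgeR adjusted p = 0.186). It was at 1.88 to 3.02 CPM in the left-out libraries, and it lies within another annotated gene. Such RNAs largely lack polyA tails. The cause of its lower level in the left-out libraries was not tested.

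CG5853, an ABC transporter of the white family that earlier results had put forward, did not separate the sides. It was at 60.4 and 92.2 CPM on day 1, at 3.39 and 4.21 CPM on day 2, at 114 and 22.5 CPM on day 3 and at 83.8 CPM on day 4. The replicates of day 3 lay farther apart than the day 1 and later means of 76.3 and 45.5 CPM, while those of day 2 were close (log2 change -0.83, SE 0.80, edgeR adjusted p = 0.785).

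The gene called lower on day 1 was Hsp83, a chaperone gene. It encodes Hsp90, the cytosolic chaperone of kinases and steroid receptors (FBgn0001233, 3L:3192969-3197059), and 1 annotated gene overlaps it on the other strand. Hsp83 was at 2257 and 2232 CPM on day 1. It was at 4194 and 6047 CPM on day 2, at 4003 and 7146 CPM on day 3 and at 6423 CPM on day 4. All later libraries lay above day 1, with means of 2245 ± 17.6 CPM (SD, n = 2) and 5562 ± 1395 CPM (SD, n = 5). Hsp83 rose by 1.31 on the log2 scale (SE 0.21, edgeR adjusted p = 0.0465), a 2.48-fold difference of the means.

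The call for Hsp83 was lost without day 1 replicate 1 (adjusted p = 0.950), without day 1 replicate 2 (0.338) and without day 2 replicate 3 (0.139). Further fits without the call included those with library totals alone (0.061) and with the 3 left-out libraries added (0.258), in which Hsp83 was at 2857, 3841 and 6394 CPM. Without both libraries that stood apart the log2 change was 1.26 and the adjusted p 0.478. Over the 19 alternatives Hsp83 was called in 9, and its estimates ranged from 1.08 to 1.42. The 12 libraries of days 5 to 8 ranged from 3576 to 11272 CPM.

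Genes of partners of Hsp90 and of Hsp70 did not pass the test. Hop and Hsc70Cb were chosen among genes whose sides did not overlap. Hop, now named Stip1, joins Hsp70 to Hsp90 during client transfer. It was at 200 and 216 CPM on day 1 and at 431, 429, 335, 506 and 604 CPM later (log2 change 1.15, SE 0.20, edgeR adjusted p = 0.0728). Hsc70Cb, an Hsp110 nucleotide exchange factor, was at 438 and 493 CPM on day 1 and at 635 to 818 CPM later (log2 change 0.68, edgeR adjusted p = 0.126). DnaJ-1, an Hsp40 cochaperone, was at 110 and 90.1 CPM on day 1 and at 106 to 311 CPM later, with day 2 replicate 2 inside the day 1 range (log2 change 1.12, edgeR adjusted p = 0.258).

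Hsc70-4, the constitutive Hsp70, was at 7327 and 8195 CPM on day 1 and at 9296 to 11129 CPM later (log2 change 0.34, edgeR adjusted p = 0.317). Hsp60 of the mitochondria was at 1075 and 1123 CPM on day 1 and at 1240 to 1508 CPM later (log2 change 0.31). The stress-inducible genes were scattered. Hsp68 was at 4.21 and 1.06 CPM on day 1 and at 7.27, 16.8, 47.5, 1.94 and 152 CPM later, and Hsp26 at 130 and 80.0 CPM and later at 106 to 461 CPM, both highest in day 4 replicate 1. Hsp70Aa, Hsp70Ab, Hsp70Ba and Hsp22 had mean levels of at most 1.01 CPM on either side.

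Of 17 heat shock genes 10 were tested, with 1 called lower on day 1 by edgeR and 2 by DESeq2, and none called higher by either. All 10 estimates were positive, 8 had an unadjusted edgeR p under 0.05 and were lower on day 1, none was higher at that p, and both day 1 libraries lay below all later ones in 3. Of all tested genes 49.7% had a negative estimate, 5.87% were lower on day 1 at that p and 7.96% had both day 1 libraries below. The median log2 change was 0.80. Without the 2 libraries that stood apart, which leaves 1 day 1 library, the median was 0.72, with 9 of 10 estimates positive. The list summed to 11711 and 12510 CPM on day 1 and to 15764 to 21556 CPM later, with 15785 to 21477 CPM in the left-out libraries and 16284 to 29318 CPM on days 5 to 8. With library totals alone, 9 of the 10 estimates were positive.

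**Figure D4:**
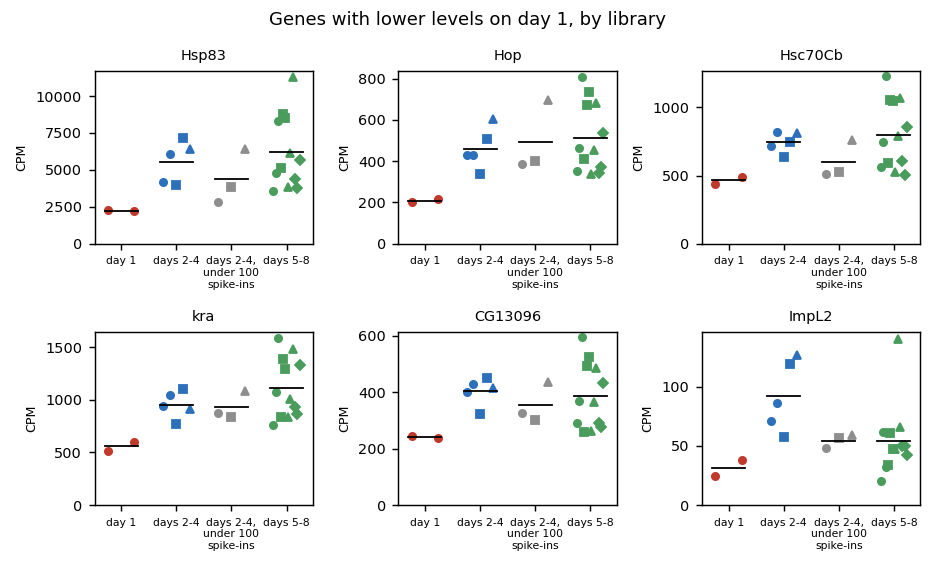
Levels in CPM of Hsp83, Hop, Hsc70Cb, kra, CG13096 and ImpL2 in each library, grouped as in the plot of sarcomere genes, with bars for group means and linear axes from 0. The day 1 points of all 6 genes lie below all points of days 2 to 4, which was a condition of their choice, and Hsp83 passed the test.

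Among further genes with low day 1 levels, ImpL2 encodes a secreted protein that binds insulin-like peptides. It was at 24.6 and 37.6 CPM on day 1 and at 71.3, 85.8, 57.2, 119 and 126 CPM later (log2 change 1.55, SE 0.32, edgeR adjusted p = 0.147). On days 5 to 8 it ranged from 20 to 140 CPM, and its groups overlapped there. The translation regulator kra had means of 557 ± 63.8 CPM (SD, n = 2) and 955 ± 127 CPM (SD, n = 5), with 8 annotated genes inside it on the same strand (log2 change 0.78, edgeR adjusted p = 0.119). CG13096 had means of 241 ± 4.19 CPM (SD, n = 2) and 403 ± 48.8 CPM (SD, n = 5), with an adjusted p of 0.133. CG4198 was at 4.92 and 7.42 CPM on day 1 and at 17.6 to 37.7 CPM later (log2 change 1.92, edgeR adjusted p = 0.186).

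EdgeR called no gene of the lists on the ovary and on basic cell functions. The shares over all tested genes were 49.7% with a negative estimate, 5.87% lower on day 1 at an unadjusted p under 0.05 and 7.96% with both day 1 libraries below all later ones. The mitochondrial ribosomal protein list had 54 positive and 18 negative estimates among 72 tested genes, a median of 0.21 and 13 genes with both day 1 libraries below all later ones; 9 were at an unadjusted p under 0.05 and lower on day 1, none was higher, and DESeq2 called none. Among them mRpS30 had means of 74.0 CPM on day 1 and 121 CPM later (log2 change 0.71, edgeR adjusted p = 0.258). The proteasome list had 23 positive and 8 negative estimates among 31, a median of 0.17 and 7 genes with both day 1 libraries below, with 5 lower on day 1 at an unadjusted p under 0.05 and none called by DESeq2, and with the lid subunit Rpn5 at means of 139 and 197 CPM. Cytosolic ribosomal proteins had a median of -0.02 over 84 genes, and RpL4 was at 4836 ± 29.8 CPM (SD, n = 2) and 4961 ± 427 CPM (SD, n = 5).

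The autophagy list had negative estimates in 18 of 20 tested genes (49.7% of all tested genes), a median of -0.32 and 5 genes with both day 1 libraries above all later ones (7.6% of all). Atg8a, whose protein coats the autophagosome, had means of 165 and 115 CPM (log2 change -0.52, edgeR adjusted p = 0.309), and the adaptor gene ref(2)P had means of 218.4 and 172 CPM (log2 change -0.35). EdgeR called none of the 20, and 3 were at an unadjusted p under 0.05, all higher on day 1 (4.21% of all); DESeq2 called none. The insulin and TOR list had a median of -0.11 over 16 genes. At an unadjusted edgeR p under 0.05, 2 were higher on day 1 and 3 lower (4.21% and 5.87% of all). DESeq2 called 1 lower, and 43 of all 6845 tested genes. S6k, which had the highest CPM of the list, had means of 366 and 373 CPM. Thor, the translation repressor 4E-BP, had means of 74.9 and 42.9 CPM and Sesn, a sestrin, of 145 and 102 CPM. Akt1 and Tor, kinases of the same pathway, had means of 161 and 204 CPM and of 187 and 240 CPM.

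Markers of the niche and escort cells and of follicle cells had medians of 0.11 over 8 genes and 0.10 over 12 genes, and germline genes one of -0.05 over 14 genes. The eggshell genes, which mark late egg chambers, varied between replicates: 9 chorion genes summed to 568 and 111 CPM on day 1 and to 331 to 1694 CPM later. Their median log2 change was 1.04, and it was 3.02 without day 1 replicate 1 and 0.54 without day 1 replicate 2.

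**Figure D5:**
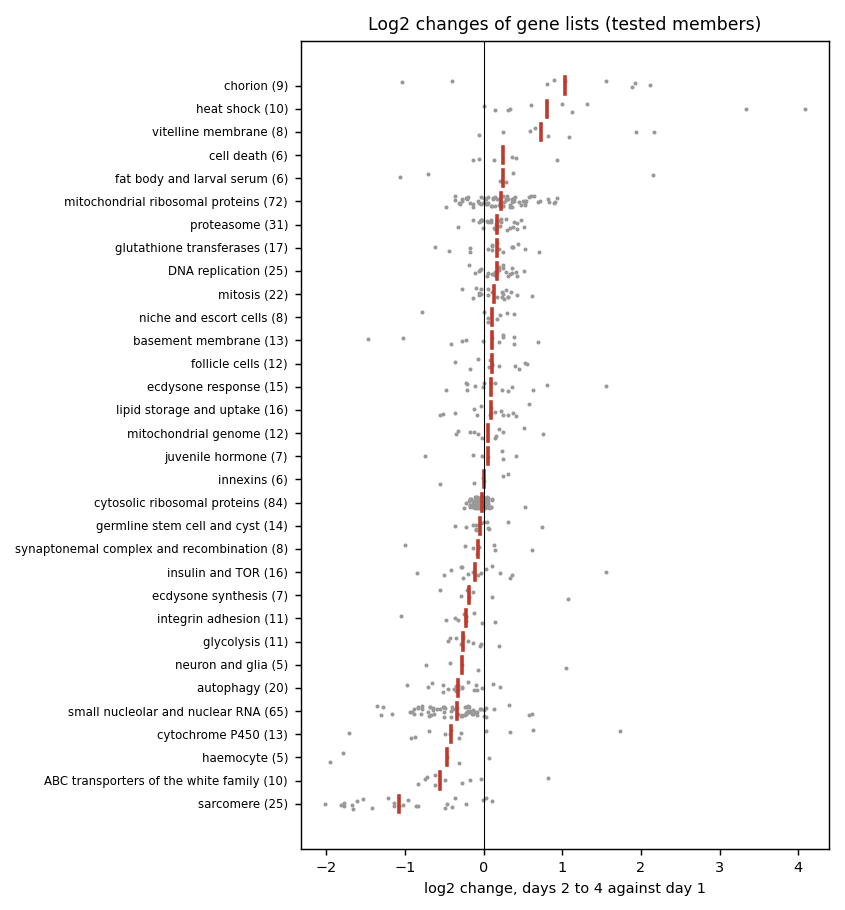
Log2 change from day 1 to days 2 to 4 of each tested gene (grey points) in the lists with at least 5 tested genes, with the list median as a red bar and the number of tested genes in brackets. The sarcomere list has the lowest median (-1.08), and the chorion and heat shock lists have the highest (1.04 and 0.80), the chorion median being 3.02 without day 1 replicate 1 and 0.54 without day 1 replicate 2.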

How the data were processed

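The authors deposited unnormalized read counts for each annotated feature and library, made with HISAT2 2.0.1, SAMtools 0.1.2, HTSeq 0.6.1p1 and CASAVA 1.8.2, per the submitters' processing notes; the deposited annotation is FlyBase release 6. Transposon insertion features and the 96 spike-in transcripts stayed out of library sizes and tests, which left 17478 genes. Strand and multiple-match settings are not given in the sources used here. The labels call the samples independent biological replicates.

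Here, genes passing edgeR's filter (minimum count 10) in the 7 libraries were tested with edgeR 4.0.16 in R 4.3.3: TMM normalization, quasi-likelihood F-test, day 1 against days 2 to 4, Benjamini-Hochberg adjustment over 6845 genes, threshold 0.05. The fit left 5 residual degrees of freedom, with a common biological coefficient of variation of 20.2%. Log2 changes are later minus day 1. No pair of replicates was a library deposited again (chi-square per degree of freedom at least 3.91). Intervals and floors of 3 counts cover counting error only. DESeq2 1.42.0, other scalings, filters and library sets were alternatives.

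The libraries, lists and genes were chosen with earlier results of these data known. Named were called genes with non-overlapping sides and at least 5 CPM on the higher side. Places up to 12 higher and 6 lower went to the smallest unadjusted p-values among uncalled genes with non-overlapping sides and that level. Non-overlap of these genes is therefore part of their choice. Also named were the members with the highest CPM of some of the lists described, and 8 genes put forward earlier. Other list members, among them Atg8a, Thor, Idgf4, mRpS30 and Rpn5, were named outside these rules. Atg17, Rpn2 and mRpS9, with the highest CPM of their lists, are not described. Lists are described by counts and medians, with no set test. Apart from the choice of members by CPM, levels are compared between genes only per kilobase of exon.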

Additional observations from a re-analysis of the deposited data

Results flagged for a closer look

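In groups of 5 later libraries, 61 results were examined for a single library far from the others, and 6 were singled out. Chance singles out about 1 in 20 groups. Of the 6, 5 concern day 4 replicate 1. In that library CG34220 was at 758 CPM, where the other 4 later libraries lay between 7.38 and 16.5 CPM, and day 1 replicate 1, the other library with transcripts of other tissues, had 87.8 CPM. CG4198 was at 37.7 CPM, against 17.6 to 23.3 CPM. Hsp26, a small heat shock protein gene, was at 461 CPM, against 106 to 183 CPM. The neuron and glia list summed to 255 CPM, against 67.2 to 100 CPM. Spike-in transcripts took 43.5% of its gene and spike-in counts, against 1.53 to 11.9%. In day 3 replicate 3 the constitutive chaperone gene Hsc70-4 was at 11129 CPM, against 9296 to 9677 CPM in the other 4.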

How the results depend on the processing

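With 2 libraries on day 1, the number of called genes depended on the fit more than the estimates did. As reported, edgeR called 2 genes higher and 1 lower on day 1. DESeq2 called 10 higher and 43 lower, edgeR with no filter on low counts 72 and 75, a filter of 1 CPM in 2 libraries 4 and 2, a coefficient per day 5 and 2, and all 22 libraries 7 and 2. Library totals alone and the addition of the 3 left-out libraries each left 0 genes lower, with 327 and 453 at an unadjusted p under 0.05. The fit of 19 libraries called 0 in either direction, with 314 higher and 562 lower at an unadjusted p under 0.05. Leaving out the 2 libraries with transcripts of other tissues, chosen after seeing the data, gave 1 and 0, with 223 lower at that p. Leaving out each replicate gave 0 to 9 genes higher and 0 to 8 lower. The lowest counts came without day 1 replicate 1 and without day 2 replicate 3, and the highest without day 4 replicate 1 (9 higher) and without day 3 replicate 1 (8 lower). The cause of these differences was not tested.

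Shared replicate numbers mark no batch in the labels. Deviations of day 1 and later libraries with the same number correlated at -0.051 to 0.199, and those with unlike numbers at -0.205 to 0.205. The deviations of the 2 day 1 libraries mirror each other, so these values cannot tell whether shared numbers pair. A fit with the replicate number as a block called 1 gene higher and 0 lower, with 279 lower at an unadjusted p under 0.05, and moved the adjusted p of up to 0.0441, of Act57B to 0.079 and of Hsp83 to 0.212.

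Over the named genes, 664 estimates kept direction and call, 71 gained a call, 21 lost one and 2 reversed. Both reversals were the log2 change of CG34220, which was 1.8 as reported and -0.49 in all 22 libraries, and ranged from -1.93 (without day 4 replicate 1) to 4.72 (without day 1 replicate 1) when single libraries were left out. The robust dispersion estimate called CG42492 and up. Library totals alone moved the median of all genes from 0.002 to -0.027. Of the list medians 612 moved by less than the SD over the 5 later libraries and 72 by more. That SD spans days 2 to 4, so it also holds differences between ages.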

Other observations

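Several transcripts outside the ovary lists had high levels in both day 1 libraries. Cyp4g1, a cytochrome P450 of hydrocarbon synthesis in oenocytes, was at 204 and 147 CPM on day 1 and at 15.0, 32.0, 63.4, 2.72 and 173 CPM in the later libraries, so that day 4 replicate 1 lay within the day 1 range (log2 change -1.71, edgeR adjusted p = 0.471). The haemocyte genes Hml and Nplp2 had means of 9.24 and 16.8 CPM on day 1 and of 2.73 and 4.35 CPM later, with no overlap of the groups. The haemocyte markers eater and He were at 0 CPM on both sides, srp had means of 114 and 93.8 CPM, and the sums of the list overlapped, at 250 and 354 CPM on day 1 and 177 to 335 CPM later. Neither Hml nor Nplp2 passed the test (edgeR adjusted p = 0.437 and 0.424). In the fat body list Idgf4, an imaginal disc growth factor gene, had means of 84.0 and 50.9 CPM and Idgf2 of 2.29 and 10.1 CPM, and the sums were 328 and 334 CPM on day 1 and 250 to 421 CPM later.

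The synaptonemal complex gene c(3)G was at 64.6 and 85.9 CPM on day 1 and at 18.4, 26.1, 110, 19.8 and 22.6 CPM later, where 110 CPM belongs to day 3 replicate 1. EdgeR called it higher on day 1 in the fit without that library. Small nucleolar and nuclear RNAs had 58 negative estimates among 65 tested genes (49.7% of all tested genes) and a median of -0.34. EdgeR called none, and 7 were at an unadjusted p under 0.05, all higher on day 1 (4.21% of all). Their sums were 3130 and 3748 CPM on day 1, 1758 to 4102 CPM later and 400 to 525 CPM in the 3 libraries with under 100 spike-in counts. Among transporters of the white family 9 of 10 estimates were negative (49.7% of all tested genes), with a median of -0.55. CG3164 had means of 181 and 117 CPM (log2 change -0.62, edgeR adjusted p = 0.248).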
